A study of Mus musculus with 6 samples.

Results

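The expression of 37 genes was compared between mouse macrophages grown from 2 sorted populations of bone marrow cells. They are genes of the glutathione, thioredoxin and peroxiredoxin systems, of NADPH supply, and of NRF2 with its inhibitor KEAP1. The members were chosen by name, but with earlier results of these data known. All 37 were found among the 55487 genes of the deposited count table and were high enough to enter the test over 13140 genes. The cells called TpMos and the mature Ly6Chi monocytes were sorted from marrow and kept for 7 days in RPMI medium with serum and CSF-1, the growth factor of macrophages, before RNA was taken. Both groups, TpMo-derived and Ly6Chi-derived macrophages, held 3 libraries (called TpMo 1 to 3 and Ly6Chi 1 to 3), and the labels name no other treatment. The sources used here give neither the CSF-1 concentration of each sample nor the strain, genotype, age and sex of the mice. The labels do not say whether the libraries of a group came from separate mice or cultures, so each p-value rests on the spread among these libraries alone, which may be technical.

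Glutathione and thioredoxin are the main carriers of reducing power against peroxides in the cytosol and mitochondria. Glutathione peroxidases and glutaredoxin draw on glutathione, peroxiredoxins draw on thioredoxin, and both carriers are regenerated by reductases that use NADPH, which the oxidative pentose phosphate pathway supplies. NRF2, encoded by Nfe2l2, is the transcription factor that switches on many of these genes when KEAP1 no longer marks it for degradation, and macrophages use the whole set to withstand the oxidants of their own respiratory burst.

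Libraries held 23765773 to 33042094 counts on genes. The macrophage markers Adgre1, Csf1r, Cd68, Fcgr1, Mertk, Itgam, Lyz2 and Cd14 were present in all libraries. Their summed level was 35268 to 37794 CPM (a gene's counts scaled to a common normalised library total) in TpMo-derived and 28910 to 31964 CPM in Ly6Chi-derived macrophages. Most of this sum came from Lyz2, which did not pass. Of these 8 markers, Adgre1, Csf1r, Fcgr1 and Cd14 passed as higher in TpMo-derived macrophages and Itgam as lower. Adgre1 was at 4015 ± 534 against 1751 ± 55.6 CPM and Fcgr1 at 335 ± 35.3 against 86.2 ± 4.61 CPM (edgeR adjusted p = 2.4e-05 and 3.53e-06). Itgam was at 144 ± 11.4 against 177 ± 2.33 CPM (edgeR adjusted p = 0.0382). Of 8 erythroid markers 6 had no count in any library, as had 7 of 8 lymphocyte, 5 of 8 dendritic cell, 6 of 8 mast cell and basophil, and 6 of 8 stroma and endothelium markers. In the erythroid, lymphocyte, dendritic cell, mast cell and basophil, and stroma and endothelium lists, only Pecam1 passed. Pecam1, an endothelial marker also found on leukocytes, was higher in TpMo-derived macrophages (0.880 ± 0.252 against 0.0207 ± 0.0359 CPM, edgeR adjusted p = 0.0356). The mast cell and progenitor receptor Kit was at 2.15 ± 1.08 against 0.145 ± 0.252 CPM and did not pass (edgeR adjusted p = 0.115). Summed levels in TpMo-derived and Ly6Chi-derived libraries were at most 0.921 and 1.06 CPM for erythroid, 0.174 and 0 CPM for lymphocyte, 0.781 and 1.27 CPM for dendritic cell, 4.97 and 4.65 CPM for mast cell and basophil, and 1.66 and 0.373 CPM for stroma and endothelium markers. The 10 neutrophil markers summed to at most 2.75 CPM in TpMo-derived and 1.49 CPM in Ly6Chi-derived libraries, and Ly6g and Mpo had no count. A list of 10 mitosis genes summed to 415 to 606 CPM in TpMo-derived and 908 to 1337 CPM in Ly6Chi-derived libraries, with 8 genes lower and 0 higher in TpMo-derived macrophages. The part of this difference in the results that follow was not tested. In bulk RNA, fewer cells that express a gene and less of its RNA per cell cannot be told apart.

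Of the 37 members, 12 were lower and 6 were higher in TpMo-derived macrophages, and 19 did not pass (edgeR's quasi-likelihood fit, with an adjusted p under 0.05 by Benjamini and Hochberg over all genes tested). The glutathione transferases Gsta3, Gstm1, Mgst1, Mgst3 and Gsto1 fell, as did the peroxiredoxins Prdx1 and Prdx6, the peroxidase Gpx1, catalase, Gclm, Taldo1 and Nqo1. The glutaredoxin Glrx, the mitochondrial enzymes Sod2 and Prdx3, the export pump Abcc1, and Keap1 and Sqstm1 rose. The share of all tested genes that passed was 12.3% in either direction, 6.54% as higher and 5.79% as lower. Among the 8480 tested genes with a mean RPKM (CPM per kilobase of exon) at least that of the lowest member, it was 16.7%. The median log2 fold change, positive where TpMo-derived macrophages were higher, was -0.21 over the members and 0.01 over all genes tested. It lay below 0 in 25 members and above 0 in 12, against 6502 and 6638 of all genes. The groups did not overlap in 22 members, 14 lower and 8 higher, where this held for 30.5% of all genes tested, 15.2% as lower and 15.3% as higher.

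**Figure D1:**
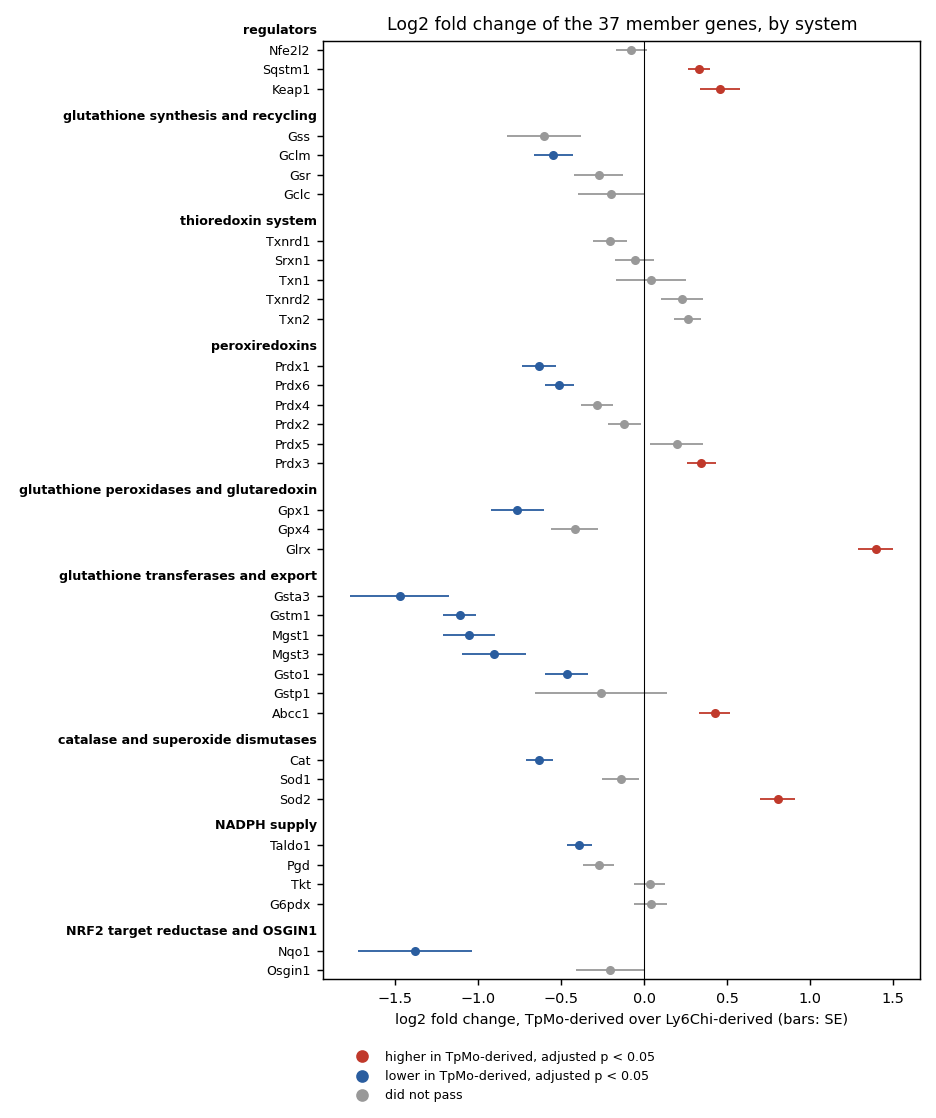
Log2 fold change (x axis, TpMo-derived over Ly6Chi-derived) of each of the 37 members, arranged by system, with standard errors as bars. The 12 blue points passed as lower and the 6 red points as higher in TpMo-derived macrophages, and the 19 grey points did not pass.

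Most changes were small beside those of Glrx and a few transferases. Only 5 of the 18 changed members differed at least 2-fold, namely Glrx as higher and Gsta3, Nqo1, Gstm1 and Mgst1 as lower. Standard errors of the members' log2 fold changes ran from 0.07 to 0.40, with a median of 0.11, and the largest belonged to the rarely counted Gstp1. The members together took 10413, 10950 and 11778 CPM in TpMo-derived and 11262, 12871 and 13121 CPM in Ly6Chi-derived libraries. These sums overlapped between groups, so the RNA devoted to the whole set was not separated by origin. Of the 18 changed members, 9 passed in each of the 6 fits that left out 1 library: Sqstm1, Glrx and Sod2 as higher, and Prdx1, Prdx6, Gstm1, Mgst1, Cat and Taldo1 as lower. The count of higher members was 3 without TpMo 3 and 3 without Ly6Chi 2.

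**Figure D2:**
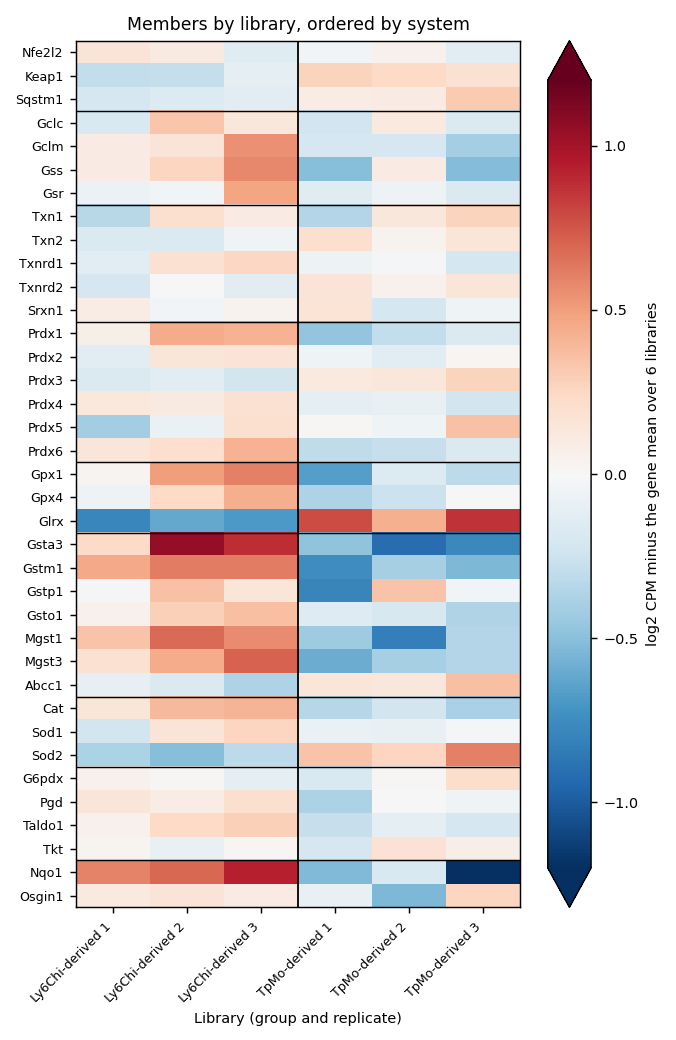
Level of each member in each library, as log2 CPM minus the member's mean over the 6 libraries (colour, cut at 1.2 on either side), with members in rows ordered by system and libraries in columns. Glrx and Sod2 are red in the 3 TpMo-derived columns, and Gstm1, Mgst1, Prdx1, Cat and Nqo1 are blue there.

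The promoters of the members, whatever their result, were searched for the letters of the antioxidant response element. This is the site at which NRF2 pairs with small MAF proteins. The letters TGACNNNGC were searched on both strands (GCNNNGTCA on the opposite one) in windows of 300 bases, from 250 before to 50 after each RefSeq start on GRCm38.p6. The tables matched 33 of the members. At least 1 window held a match for 10 of these 33 genes (30.3%), against 1608 of 9347 tested genes with a window (17.2%) and 14% of all 27025 genes. By result, a match was found for 4 of 11 members that fell (36.4%) and for 0 of 5 that rose. For members that did not pass it was found for 6 of 17 (35.3%). Among all tested genes with a window, a match was found for 18.5% of those called lower and 19.7% of those called higher. Whether matches go with direction was not tested. The matches are shown in capitals with 30 bases on either side for the 4 members that fell and for Txnrd1 and G6pdx, which did not pass.
Prdx1 (chr4:116685436-116685504, plus strand): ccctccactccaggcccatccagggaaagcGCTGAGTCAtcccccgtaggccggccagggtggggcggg
Gclm (chr3:122245393-122245461, plus strand): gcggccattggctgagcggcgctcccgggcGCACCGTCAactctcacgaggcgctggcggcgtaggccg
Mgst1 (chr6:138140441-138140509, plus strand): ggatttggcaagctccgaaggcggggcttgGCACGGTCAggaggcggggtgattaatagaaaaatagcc
Gsta3 (chr1:21240434-21240502, plus strand): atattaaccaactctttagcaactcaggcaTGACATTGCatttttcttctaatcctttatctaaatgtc
Txnrd1 (chr10:82859084-82859152, plus strand): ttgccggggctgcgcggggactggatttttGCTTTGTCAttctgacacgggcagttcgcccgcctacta
G6pdx (chrX:74428899-74428967, minus strand): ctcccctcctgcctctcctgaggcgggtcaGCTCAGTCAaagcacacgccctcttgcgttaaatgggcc
The match of Prdx1 began 133 bases before the start and was the only one of the 10 that also held the AP-1 letters TGACTCA, on the opposite strand. Those of Gclm, Mgst1 and Gsta3 began 134, 56 and 121 bases before the RefSeq start of their window. Mgst1 had 2 windows and Txnrd1 had 3, and in each of these genes only 1 window held a match. The matches shown for Mgst1, Txnrd1 and G6pdx lie inside the span of the counted gene, so they are upstream of an internal start only. The other matches lay in the windows of Nfe2l2, Srxn1, Sod1 and Pgd. Those of Nfe2l2 and Sod1 were upstream of the start. The matches of Srxn1 and Pgd began at bases 29 and 4, counting the start as base 1, inside the span of the counted gene. Of the 10 matches, 8 were thus upstream of a RefSeq start. The window of Nqo1, which fell, held no match. Bases outside the windows were not searched in any gene, so a gene without a match may hold one farther from its start. A match describes these letters only, and binding was not measured.

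Of the regulators, Keap1 and Sqstm1 rose and the transcript of NRF2 itself did not pass. Nfe2l2 (ENSMUSG00000015839.6, chromosome 2, 75675513 to 75704641 on GRCm38) stood at 199, 210 and 187 CPM in TpMo-derived and 226, 219 and 184 CPM in Ly6Chi-derived libraries. The groups overlapped, and the log2 fold change was -0.08 ± 0.09 (SE, adjusted p = 0.702). Keap1, the adaptor that presents NRF2 to a ubiquitin ligase, stood at 60.0, 58.8 and 56.8 CPM in TpMo-derived and 40.6, 41.0 and 46.2 CPM in Ly6Chi-derived libraries. All 3 TpMo-derived libraries lay above the others, with a log2 fold change of 0.46 ± 0.12 (SE, edgeR adjusted p = 0.0318). The call of Keap1 was lost without TpMo 1, 2 or 3 or Ly6Chi 1 or 2 (edgeR adjusted p = 0.0899, 0.0697, 0.0717, 0.110 and 0.123), and with library sizes alone (adjusted p = 0.0504). Sqstm1 encodes p62, an autophagy receptor that can trap KEAP1. It stood at 1967, 1982 and 2299 CPM in TpMo-derived against 1616, 1657 and 1696 CPM in Ly6Chi-derived libraries, without overlap (edgeR log2 fold change 0.33 ± 0.07 SE, adjusted p = 0.00872). Of the bases of its exons, 17.3% lie in exons of its neighbour Mrnip, where reads were not counted. For Keap1 this share was 10.9%, with Gm16754.

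The glutathione synthesis genes all had log2 fold changes below 0, but only the modifier subunit of the first enzyme passed. Gclm, which lowers the feedback inhibition of glutamate-cysteine ligase, stood at 234, 234 and 203 CPM in TpMo-derived and 288, 298 and 393 CPM in Ly6Chi-derived libraries. The highest value was that of Ly6Chi 3, and the groups did not overlap (edgeR log2 fold change -0.55 ± 0.12 SE, adjusted p = 0.0136). Without TpMo 3 the call of Gclm was lost (edgeR adjusted p = 0.0697). The catalytic subunit Gclc was at 18.3 ± 2.42 CPM (SD, n = 3) against 21.0 ± 3.72 CPM. Glutathione synthetase Gss was at 18.1 ± 4.69 against 27.5 ± 4.81 CPM, and glutathione reductase Gsr at 71.0 ± 2.84 against 85.9 ± 19.0 CPM. None of Gclc, Gss and Gsr passed (edgeR adjusted p = 0.636, 0.120 and 0.299), although Gss passed without TpMo 2 (adjusted p = 0.0376). Per kilobase of exon, Gclm was 6.63 to 8.42 times Gclc in TpMo-derived and 7.27 to 11 times in Ly6Chi-derived libraries, so this ratio overlapped between groups.

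No thioredoxin system gene passed, in either direction. The groups did not overlap in 2 of its 5 genes, both mitochondrial, where this held for 30.5% of all genes tested. Txn2, mitochondrial thioredoxin, stood at 186, 167 and 179 CPM in TpMo-derived and 143, 144 and 156 CPM in Ly6Chi-derived libraries. These values did not overlap, with a log2 fold change of 0.26 ± 0.08 (SE, edgeR adjusted p = 0.0650). DESeq2 and a fit of protein-coding genes alone called Txn2 higher (adjusted p = 0.0217 and 0.0493). Txnrd2, its reductase, stood at 49.0, 45.6 and 48.8 CPM against 38.3, 43.9 and 40.0 CPM, also without overlap (edgeR log2 fold change 0.23 ± 0.13 SE, adjusted p = 0.312). The cytosolic thioredoxin Txn1 was at 27.8 ± 5.97 against 27.1 ± 4.97 CPM, and its reductase Txnrd1 at 203 ± 13.3 against 233 ± 31.1 CPM. Sulfiredoxin, Srxn1, which repairs over-oxidised peroxiredoxins, was at 72.3 ± 9.61 against 75.3 ± 3.16 CPM. The groups overlapped for all 3 cytosolic genes. Their log2 fold changes were 0.04 ± 0.21, -0.20 ± 0.10 and -0.06 ± 0.12 (SE).

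The peroxiredoxins, which reduce hydrogen peroxide at a reactive cysteine, split by member. Prdx1 (ENSMUSG00000028691.12, chromosome 4, 116685544 to 116700822), whose upstream match is shown above, was the member with the highest level per length. It stood at 2368, 2670 and 2909 CPM in TpMo-derived and 3453, 4483 and 4391 CPM in Ly6Chi-derived libraries. Every Ly6Chi-derived library lay above every TpMo-derived one, and the log2 fold change was -0.63 ± 0.10 (SE, edgeR adjusted p = 0.00285). Prdx6, the 1-Cys member that is recharged by glutathione, stood at 188, 192 and 206 CPM against 257, 268 and 311 CPM. It too was lower in all TpMo-derived libraries (edgeR log2 fold change -0.51 ± 0.09 SE, adjusted p = 0.00405). The mitochondrial Prdx3 went the other way, at 120, 121 and 132 CPM in TpMo-derived and 97.7, 101 and 94.6 CPM in Ly6Chi-derived libraries (edgeR log2 fold change 0.35 ± 0.09 SE, adjusted p = 0.0294). The call of Prdx3 held in only 1 of the 6 fits that left out a library. It was lost without TpMo 1 or 3 or Ly6Chi 1, 2 or 3 (edgeR adjusted p = 0.0515, 0.102, 0.0861, 0.0767 and 0.100) and with library sizes alone (adjusted p = 0.0514). Prdx4, of the endoplasmic reticulum, stood at 73.0, 74.3 and 68.1 CPM in TpMo-derived against 86.5, 85.5 and 90.0 CPM in Ly6Chi-derived libraries. The groups did not overlap, but Prdx4 missed the threshold (edgeR log2 fold change -0.28 ± 0.10 SE, adjusted p = 0.0921; adjusted p = 0.0227 with DESeq2). Prdx2 and Prdx5 overlapped between groups, at 153 ± 8.44 against 166 ± 19.0 CPM and 91.2 ± 14.1 against 79.6 ± 16.4 CPM. Summed, the 6 peroxiredoxins took 29.7% of the members' CPM in TpMo-derived and 38.8% in Ly6Chi-derived macrophages, most of it from Prdx1.

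Glutaredoxin rose by the most of any member, and 1 of 2 glutathione peroxidases fell. Glrx (ENSMUSG00000021591.8, chromosome 13, 75839868 to 75850154), which removes glutathione from protein cysteines, stood at 1067, 831 and 1127 CPM in TpMo-derived libraries. In Ly6Chi-derived libraries it stood at 360, 404 and 384 CPM. The lowest TpMo-derived library thus exceeded every Ly6Chi-derived one, and the fold was 2.63 (edgeR log2 fold change 1.40 ± 0.11 SE, adjusted p = 3.04e-05). Gpx1, the selenoenzyme that reduces peroxide with glutathione in cytosol and mitochondria, stood at 130, 183 and 164 CPM in TpMo-derived and 209, 290 and 310 CPM in Ly6Chi-derived libraries. The groups did not overlap (edgeR log2 fold change -0.76 ± 0.16 SE, adjusted p = 0.0107). The call of Gpx1 was lost without Ly6Chi 2 or 3 (adjusted p = 0.0515 and 0.0527). Gpx4, which reduces lipid peroxides and restrains ferroptosis, was at 81.1 ± 11.1 against 108 ± 18.4 CPM and did not pass (edgeR log2 fold change -0.42 ± 0.14 SE, adjusted p = 0.0947). Gpx4 was called lower by DESeq2, without a count filter, with a minimum of 5 CPM in 3 libraries, and without Ly6Chi 1 (adjusted p = 0.0416, 0.0289, 0.0420 and 0.0483). Of the 51-base stretches of its transcripts, 34.5% also occur in transcripts of other genes, mainly Gpx4-ps2, so part of its reads could not be placed uniquely.

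**Figure D3:**
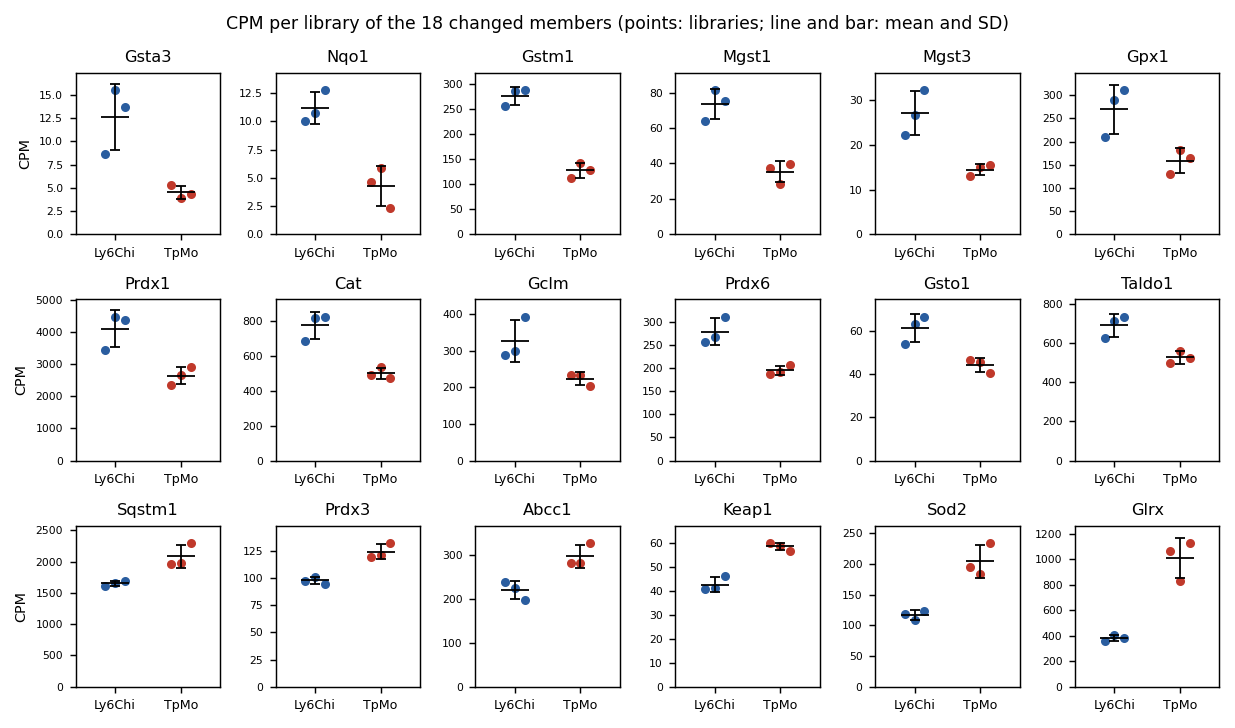
CPM (y axis, from 0) of the 18 changed members in each library, ordered from the largest decrease to the largest increase, with Ly6Chi-derived libraries in blue, TpMo-derived ones in red, and mean and SD of 3 libraries as line and bar. In each panel the 3 red points lie on one side of the 3 blue points.

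Among the members, the glutathione transferases, which join glutathione to reactive compounds, were the system with the most decreases. Of 6 transferases 5 fell, where 5.79% of all genes tested were called lower. The decreases were less common outside the members. Of 13 further transferase and export genes tested, 1 passed as lower, 1 as higher and 11 did not pass. Gstm1 (ENSMUSG00000058135.12, chromosome 3, 108012255 to 108017973), a mu class enzyme, stood at 112, 143 and 129 CPM in TpMo-derived and 257, 287 and 288 CPM in Ly6Chi-derived libraries. The Ly6Chi-derived libraries were thus 2.16-fold higher (edgeR log2 fold change -1.11 ± 0.10 SE, adjusted p = 8.35e-05). Of the 51-base stretches of Gstm1, 18.5% are shared with genes such as Gstm2 and Gstm3, so its level is uncertain. The membrane-bound Mgst1, with a match shown above in 1 of its 2 windows, stood at 37.5, 28.7 and 39.8 CPM against 64.2, 81.2 and 75.0 CPM. No library of one group reached the other (edgeR log2 fold change -1.06 ± 0.16 SE, adjusted p = 0.00170). Mgst3, a relative of Mgst1 with peroxidase activity, stood at 13.0, 15 and 15.4 CPM in TpMo-derived and 22.3, 26.8 and 32.2 CPM in Ly6Chi-derived libraries (edgeR log2 fold change -0.91 ± 0.20 SE, adjusted p = 0.0135). The alpha class Gsta3 stood at 5.31, 3.94 and 4.34 CPM against 8.68, 15.4 and 13.7 CPM, the largest decrease of a member, at -1.48 ± 0.30 (log2, SE, edgeR adjusted p = 0.00945). Gsto1, an omega class enzyme with glutaredoxin-like activity, stood at 46.8, 45.7 and 40.6 CPM in TpMo-derived against 54.0, 63.4 and 66.7 CPM in Ly6Chi-derived libraries (edgeR log2 fold change -0.47 ± 0.13 SE, adjusted p = 0.0424).

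All 5 were without overlap, but 3 of these calls depended on single libraries. That of Gsta3 was lost without Ly6Chi 2 (edgeR adjusted p = 0.0546), and that of Mgst3 without TpMo 1 or Ly6Chi 3 (0.0515 and 0.0635). That of Gsto1 was lost without TpMo 1, 2 or 3 or Ly6Chi 2 or 3 (0.0743, 0.0734, 0.137, 0.133 and 0.147). Gstp1 was rare in both groups, at 3.64 ± 1.34 against 4.35 ± 0.566 CPM, and did not pass (edgeR adjusted p = 0.771). It shares 33.5% of its 51-base stretches, chiefly with Gstp2,, so its level is uncertain. The export pump Abcc1, which moves glutathione and its conjugates out of the cell, rose. It stood at 282, 281 and 328 CPM in TpMo-derived and 239, 226 and 198 CPM in Ly6Chi-derived libraries, without overlap (edgeR log2 fold change 0.43 ± 0.09 SE, adjusted p = 0.0142). Its call was lost without TpMo 3 or Ly6Chi 2 or 3 (adjusted p = 0.0645, 0.0522 and 0.0616).

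Catalase and mitochondrial superoxide dismutase moved in opposite directions. Cat (ENSMUSG00000027187.10, chromosome 2, 103453849 to 103485160), the peroxisomal enzyme that splits hydrogen peroxide, stood at 490, 533 and 472 CPM in TpMo-derived and 683, 813 and 822 CPM in Ly6Chi-derived libraries. The gap between the groups exceeded the range within TpMo-derived libraries (edgeR log2 fold change -0.63 ± 0.08 SE, adjusted p = 8.05e-04). Sod2 (ENSMUSG00000006818.5, chromosome 17, 13006846 to 13040063), the manganese enzyme of the mitochondrial matrix and a known NF-kB target, stood at 195, 183 and 234 CPM against 118, 108 and 124 CPM. It was 1.75-fold higher in TpMo-derived macrophages, without overlap (edgeR log2 fold change 0.81 ± 0.11 SE, adjusted p = 8.57e-04). Of its 51-base stretches, 20.8% occur in transcripts of other genes. The copper and zinc enzyme Sod1, of the cytosol, was at 241 ± 6.25 against 266 ± 44.5 CPM, overlapped between groups and did not pass (edgeR adjusted p = 0.513).

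In the pentose phosphate pathway, the entry enzyme did not pass and an enzyme of the later, non-oxidative branch fell. G6pdx, the enzyme that commits glucose to NADPH production, was at 241 ± 32.6 CPM in TpMo-derived and 234 ± 14.3 CPM in Ly6Chi-derived macrophages (edgeR log2 fold change 0.04 ± 0.10 SE, adjusted p = 0.871). Pgd, which yields the next NADPH, stood at 446, 579 and 560 CPM against 641, 615 and 662 CPM. Its groups did not overlap, and it missed the threshold in the main test (edgeR log2 fold change -0.28 ± 0.09 SE, adjusted p = 0.0882). In 5 of 7 alternatives with all libraries Pgd passed as lower (adjusted p down to 0.0220). Taldo1, transaldolase of the non-oxidative branch, stood at 497, 561 and 524 CPM in TpMo-derived and 626, 713 and 735 CPM in Ly6Chi-derived libraries. It was lower in every TpMo-derived library (edgeR log2 fold change -0.39 ± 0.08 SE, adjusted p = 0.00796). Its partner transketolase, Tkt, was at 519 ± 67.5 against 507 ± 22.8 CPM and did not pass (edgeR adjusted p = 0.885).

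Of the remaining members, the quinone reductase Nqo1, widely used as a read-out of NRF2, was low in both groups and lower in TpMo-derived macrophages. It stood at 4.60, 5.87 and 2.34 CPM in TpMo-derived and 10.1, 10.7 and 12.7 CPM in Ly6Chi-derived libraries. The groups did not overlap (edgeR log2 fold change -1.38 ± 0.35 SE, adjusted p = 0.0271). Yet the call of Nqo1 held in only 1 of the 6 fits that left out a library. It was lost without TpMo 1 or 3 or Ly6Chi 1, 2 or 3 (edgeR adjusted p = 0.0676, 0.0584, 0.0716, 0.0808 and 0.106). Osgin1, a stress-induced growth inhibitor, was at 25.1 ± 6.78 against 28.9 ± 0.611 CPM and did not pass (edgeR adjusted p = 0.619).

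Levels can be compared between genes only per length. In mean RPKM over the 6 libraries, the members ranged from 1.97 for Gsta3 to 1110 for Prdx1, which ranked 25th among all genes tested. Sqstm1 followed at 557 RPKM, Taldo1 at 281 RPKM and Cat at 243 RPKM. Among the transferases, Gstm1 was the most abundant, at 87.0 ± 10.4 RPKM in TpMo-derived and 188 ± 12 RPKM in Ly6Chi-derived macrophages. Glrx was at 183 ± 28.4 against 69.7 ± 4.04 RPKM and so stood above Gpx1 in TpMo-derived macrophages (110 ± 18.7 RPKM) and below it in Ly6Chi-derived ones (187 ± 37.1 RPKM). The mitochondrial Prdx3, at 84.2 ± 4.70 against 66.2 ± 2.27 RPKM, was the second of the peroxiredoxins. Nfe2l2, at 52.3 ± 3.10 against 55.2 ± 5.99 RPKM, was above Keap1, at 12.5 ± 0.346 against 9.07 ± 0.665 RPKM, in both groups.

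**Figure D4:**
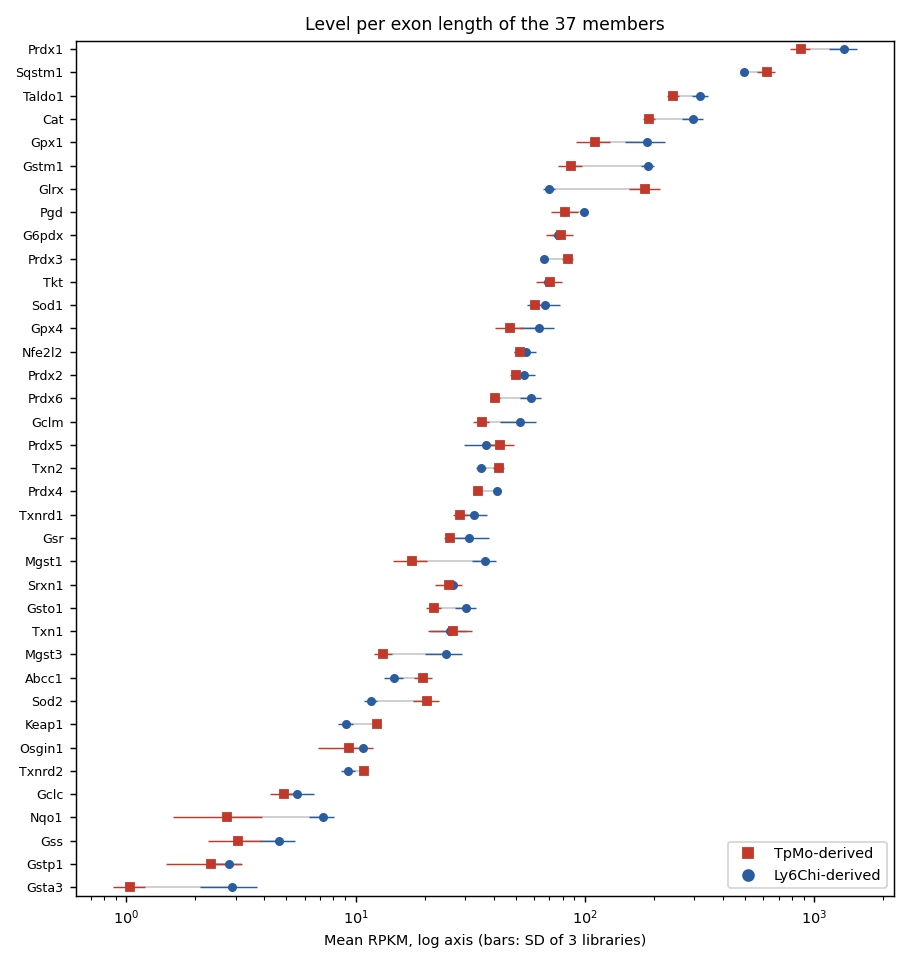
Mean RPKM (x axis, log scale) of each member in TpMo-derived (red squares) and Ly6Chi-derived (blue circles) macrophages, with the SD of 3 libraries as bars, ordered by the mean over all libraries. Prdx1 and Sqstm1 lie at the top, Gsta3 and Gstp1 at the bottom, and Glrx and Gpx1 exchange order between the groups.

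A further 90 genes of the same pathway, listed by function, were read from the same fit. Of these, 71 were tested, of which 9 were lower, 7 were higher and 55 did not pass, beside 12.3% of all genes called. With library sizes alone 14 were lower and 6 higher. Of the 19 genes too low to test, 10 had no count in any library, among them the alpha class transferases Gsta1, Gsta2 and Gsta4. The median log2 fold change of the tested genes was -0.18. All 16 tested genes of the group of other NRF2 targets and reductases had log2 fold changes below 0, from -1.58 to -0.01. Only 4 passed, Ephx1, Ptgr1, Ftl1 and the aldehyde reductase Akr1a1, where 5.79% of all genes tested were called lower. This mixed list does not stand for NRF2 targets as a whole. The members, some of them NRF2 targets too, went both ways, 12 lower and 6 higher. Ephx1, a microsomal epoxide hydrolase, stood at 12.5 ± 2.27 CPM in TpMo-derived and 37.5 ± 2.36 CPM in Ly6Chi-derived macrophages (edgeR log2 fold change -1.58 ± 0.19 SE, adjusted p = 4.39e-04). The prostaglandin reductase Ptgr1 was at 58.4 ± 1.5 against 146 ± 13.3 CPM (edgeR log2 fold change -1.33 ± 0.10 SE, adjusted p = 3.04e-05). The ferritin light chain Ftl1 fell, at 4143 ± 84.9 against 5685 ± 966 CPM (edgeR adjusted p = 0.0146), a call lost without TpMo 1 or 3 or Ly6Chi 2 or 3 (adjusted p = 0.0580, 0.0584, 0.0652 and 0.0532) and without a count filter (0.0951). The haem oxygenase Hmox1 had a log2 fold change of -0.16 ± 0.06 (SE) and did not pass (edgeR adjusted p = 0.133). It passed as lower with library sizes alone, with limma-voom and without TpMo 3 (adjusted p = 0.0445, 0.0484 and 0.0383).

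**Figure D5:**
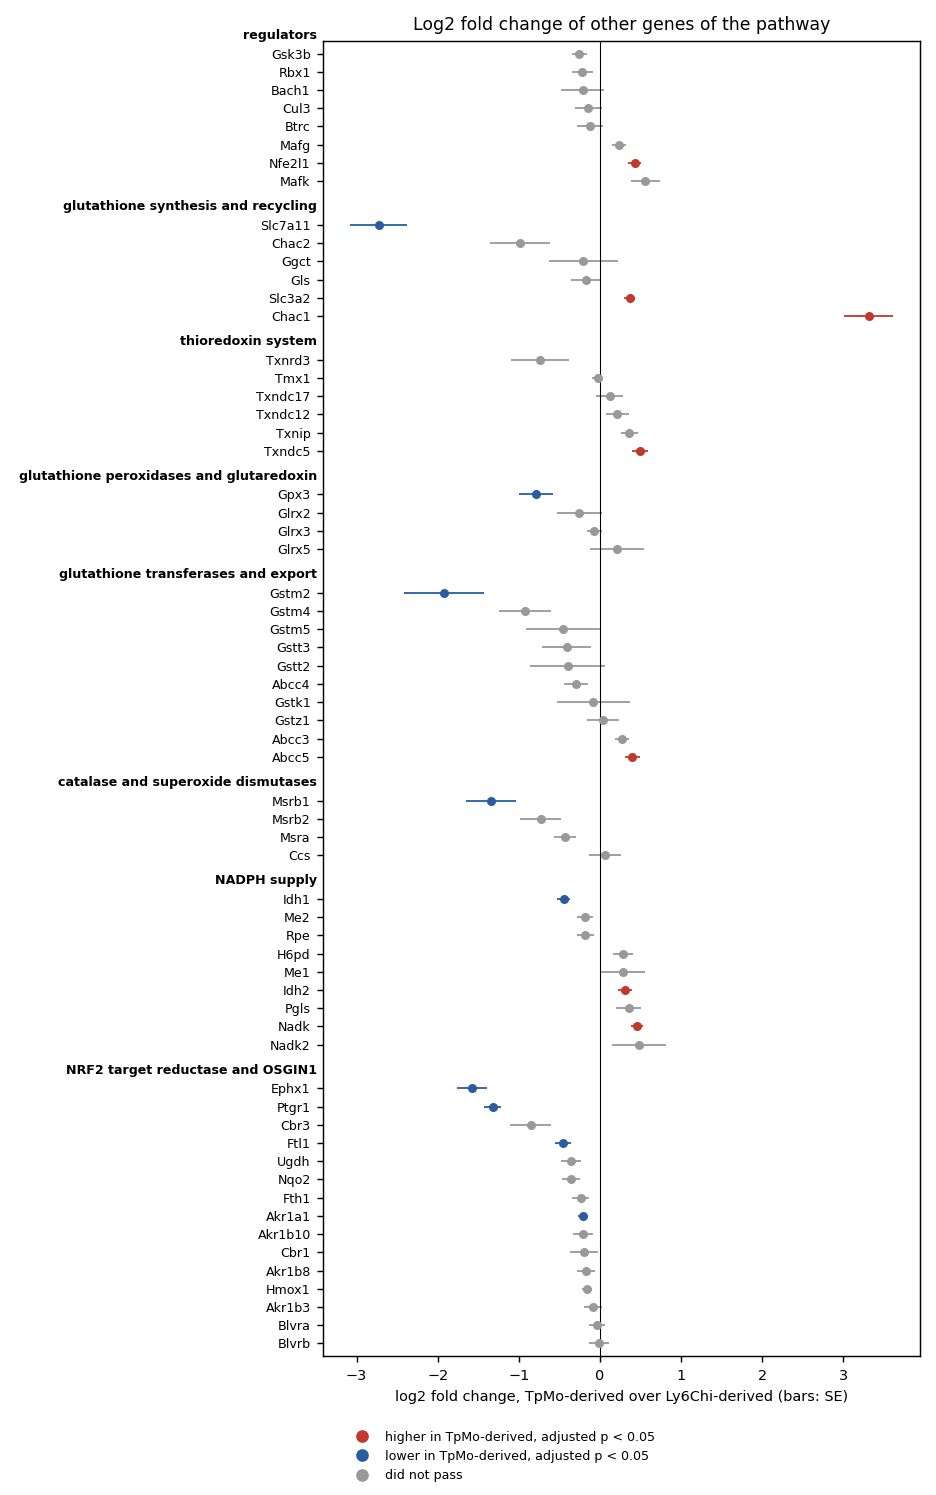
Log2 fold change (x axis, TpMo-derived over Ly6Chi-derived, bars SE) of 62 other genes of the pathway, with 9 tested genes of SE at or above 0.6 left out. Chac1 and Slc7a11 lie farthest from 0, on opposite sides, and every gene of the lowest group lies to the left of 0.

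Among genes that set the supply of glutathione, the cystine transporter Slc7a11 and the glutathione-degrading enzyme Chac1 moved furthest, in opposite directions. Slc7a11, which imports the cystine from which glutathione is made, was at 3.56, 3.49 and 3.21 CPM in TpMo-derived and 12.3, 22.9 and 32.9 CPM in Ly6Chi-derived libraries. The Ly6Chi-derived libraries thus also differed widely among themselves (edgeR log2 fold change -2.73 ± 0.35 SE, adjusted p = 7.45e-04). Its partner chain Slc3a2, which serves several amino acid transporters, rose, at 1366, 1164 and 1276 CPM against 934, 987 and 1030 CPM (edgeR log2 fold change 0.37 ± 0.07 SE, adjusted p = 0.00642). Chac1, which cleaves glutathione and is a target of the ATF4 stress pathway, stood at 29.3, 24.9 and 24.9 CPM in TpMo-derived and 3.92, 2.12 and 1.93 CPM in Ly6Chi-derived libraries. It rose in all 3 TpMo-derived libraries (log2 fold change 3.31 ± 0.30, SE, edgeR adjusted p = 9.28e-05). Chac2, of the same list, had a log2 fold change below 0, at 4.02 ± 1.45 against 7.97 ± 2.37 CPM. Its groups overlapped and it did not pass (edgeR log2 fold change -0.99 ± 0.37 SE, adjusted p = 0.124). Each of Slc7a11, Slc3a2 and Chac1 passed in all 6 fits that left out a library.

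The other systems held few changed genes outside the members. Nfe2l1, a relative of NRF2 that controls proteasome genes, rose from 140 ± 8.88 to 189 ± 5.45 CPM (edgeR log2 fold change 0.43 ± 0.08 SE, adjusted p = 0.00627). Of the thioredoxin-related genes, Txndc5, a disulfide isomerase of the endoplasmic reticulum, rose (edgeR log2 fold change 0.50 ± 0.10 SE, adjusted p = 0.00817), or had adjusted p = 0.0509 without Ly6Chi 2. The thioredoxin inhibitor Txnip was at 214 ± 19.6 against 167 ± 20.5 CPM and did not pass (edgeR adjusted p = 0.0546), while 5 of 7 alternatives with all libraries called it higher. The methionine sulfoxide reductase Msrb1 fell, at 4.85 ± 1.5 against 12.3 ± 2.37 CPM (edgeR adjusted p = 0.0183, and 0.0849 without Ly6Chi 3). The secreted peroxidase Gpx3 was at 18 ± 1.18 against 31.1 ± 8.01 CPM and passed as lower (edgeR adjusted p = 0.0366), but in only 1 of the 6 fits that left out a library, losing the call without TpMo 1, 2 or 3 or Ly6Chi 1 or 3 (0.0912, 0.0684, 0.124, 0.149 and 0.122). The mu class transferase Gstm2 was at 2.48 ± 1.38 against 9.39 ± 3.39 CPM (edgeR adjusted p = 0.0298), lost without TpMo 3 or Ly6Chi 2 or 3 (0.0913, 0.104 and 0.120). The pump Abcc5 rose (edgeR log2 fold change 0.40 ± 0.10 SE, adjusted p = 0.0245), a call lost without TpMo 1 or 3 or Ly6Chi 1 or 2 (0.0885, 0.0621, 0.0980 and 0.0846). Of the NADPH genes, the NAD kinase Nadk, which makes the NADP pool, rose to 381 ± 36.8 from 277 ± 1.98 CPM (edgeR log2 fold change 0.46 ± 0.08 SE, adjusted p = 0.00382).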

How the data were processed

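RNA sequencing libraries of TpMo-derived and Ly6Chi-derived macrophages, 3 each, were read from 1 table of raw counts that the authors deposited. Per the file headers, featureCounts 1.6.3 counted reads over exons of GENCODE M22 with default settings, so mates counted separately, strand was ignored, and reads on several places or genes were dropped. STAR and GRCm38 come from the submitters' processing notes, with no version of the aligner given in the sources used here. Symbols came from GENCODE M21 on the same build (55394 identifiers matched, 93 did not), and promoter sequences from RefSeq on GRCm38.p6.

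Genes passing filterByExpr (minimum count 10, minimum total 15) were scaled by TMM and tested with edgeR 4.0.16 in R 4.3.3 (robust quasi-likelihood, no covariate). CPM used the TMM-adjusted totals, RPKM the deposited exon length, and SE was the log2 fold change divided by the root of F. Pairs of libraries within a group differed by 20.6 to 33.8 in chi-square per degree of freedom, above counting error. A floor of 3 counts equals 0.0908 to 0.126 CPM, for counting error only, and every member had at least 54 counts in each library. The script was tested on simulated data. Members and lists were chosen with earlier results of these data known. The text gives library values for changed members, for Nfe2l2, Keap1 and Nqo1, and for members whose groups do not overlap, and names up to 3 changed genes per system among the other pathway genes, plus Slc7a11, Hmox1 and Txnip. Alternatives were DESeq2 1.42.0, limma-voom (limma 3.58.1), 2 other scalings, 2 other filters, protein-coding genes alone, an adjusted p under 0.01 and leaving out each library.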

Additional observations from a re-analysis of the deposited data

How the results depend on the processing

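None of the 18 changed members reversed direction under any alternative. No paired analysis was possible because the labels carry no replicate numbers. At an adjusted p under 0.01, 454 genes were higher and 331 lower, with 3 and 7 members and 4 lower genes of the other pathway list. DESeq2 gave 1165 lower genes, and 15 lower among the other pathway genes, which numbered 14 with library sizes alone and 14 with at least 5 CPM in 3 libraries. Leaving out 1 library gave 531 to 750 higher and 445 to 742 lower genes, 3 to 5 higher and 8 to 12 lower members, and 4 to 6 higher and 4 to 10 lower other pathway genes. The members that reversed had not passed. With library sizes alone the log2 fold changes of Txn1, G6pdx and Tkt were -0.00862, -0.0103 and -0.0161, and with limma-voom that of Txn1 was -8.93e-04. Without 1 library, Txn1 ran from -0.111 to 0.203 (below 0 without TpMo 2 or 3 or Ly6Chi 1), Srxn1 from -0.166 to 0.0270 (above 0 without TpMo 2), G6pdx from -0.0639 to 0.131 (below 0 without TpMo 3 or Ly6Chi 3) and Tkt from -0.0495 to 0.132 (below 0 without TpMo 2 or Ly6Chi 2). The cause was not tested. The fits without a library had fewer samples. Gstp1, Gsta3 and Nqo1 had the fewest counts and the largest standard errors among members.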

Other observations

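Set side by side by the place of the encoded protein, mitochondrial and cytosolic forms of the same activity had different values in several pairs. The pairs were chosen after their values were seen, so they carry no test of their own as a group. The mitochondrial Sod2 and Prdx3 rose, while their cytosolic counterparts Sod1 and Prdx2 did not pass and Prdx1 fell. Mitochondrial Txn2 and Txnrd2 had log2 fold changes of 0.26 and 0.23, and cytosolic Txn1 and Txnrd1 had 0.04 and -0.20, with no call in any of the 4. Of the NADPH-yielding isocitrate dehydrogenases, the mitochondrial Idh2 stood at 112, 103 and 109 CPM in TpMo-derived and 84.8, 89.9 and 87.1 CPM in Ly6Chi-derived libraries (edgeR log2 fold change 0.31 ± 0.09 SE, adjusted p = 0.0490). The cytosolic Idh1 stood at 214, 232 and 207 CPM against 303, 314 and 274 CPM (edgeR log2 fold change -0.45 ± 0.08 SE, adjusted p = 0.00481). Per kilobase of exon, Idh1 was 1.78 to 2.10 times Idh2 in TpMo-derived and 2.94 to 3.33 times in Ly6Chi-derived libraries, without overlap. The call of Idh2 was lost in all 6 fits that left out a library (adjusted p from 0.0614 to 0.148) and with library sizes alone or no count filter (0.0879 and 0.0885), while Idh1 passed in all 6. Other genes went the other way. The cytosolic glutaredoxin Glrx rose, while the mitochondrial Glrx2 had a log2 fold change of -0.25 ± 0.27 (SE) and did not pass. The 2 NAD kinases had similar log2 fold changes. That of the cytosolic Nadk, which passed, was 0.46 ± 0.08 (SE). That of the rarely counted mitochondrial Nadk2, which did not pass, was 0.48 ± 0.33 (SE). The mitochondrial malic enzyme Me2 and the mitochondrial methionine sulfoxide reductase Msrb2 were lower without overlap, with log2 fold changes of -0.19 and -0.73, and did not pass (edgeR adjusted p = 0.283 and 0.0944). Over 10 mitochondrial genes (Txn2, Txnrd2, Prdx3, Sod2, Idh2, Glrx2, Glrx5, Nnt, Nadk2 and Me2, a choice that leaves out Msrb2), 3 passed as higher and 0 as lower, beside 6.54% and 5.79% of all genes tested. Their groups did not overlap in 6, 5 higher and 1 lower, beside 15.3% and 15.2% of all genes tested. Over 9 cytosolic genes (Txn1, Txnrd1, Prdx1, Prdx2, Sod1, Idh1, Glrx, Nadk and Me1), 2 passed as higher and 2 as lower, and these 4 were the ones without overlap. Neither list holds the methionine sulfoxide reductase Msrb1, which passed as lower. Both lists were chosen after their values were seen, so their counts carry no test either. A difference between the lists was not tested.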
